A study of Mus musculus with 6 samples.

Results

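The genes for the nuclear-encoded subunits of the mitochondrial respiratory chain were compared between haematopoietic stem cells sorted as positive for CCR2, a receptor for chemokines, and those sorted as negative for it. Members were all genes whose symbol in the probe annotation begins as a subunit symbol of complexes I to V (Nduf with a, b, c, s or v and a number, Sdha to Sdhd, Uqcr, Cox4 to Cox8, Atp5) or is Cyc1 or Cycs, with assembly factors left out. There were 82 such genes of 22180 measured, namely 33 for complex I, 4 for complex II, 9 for complex III, 17 for complex IV, 18 for complex V and 1 for cytochrome c. Of the 82, 2 were named as pseudogenes (Uqcrh-ps1 and Atp5c1-ps). Another 9 protein-coding genes that fit the rule, among them Ndufs6, Uqcr10 and Cox6c, had no probe set of their own and were not analysed here. The letters of the rule also left out Ndufab1, the acyl carrier subunit of complex I.

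The series held 3 CCR2-positive pools and 3 CCR2-negative pools of stem cells sorted from the bone marrow of C57BL/6J mice, with the marrow of 20 mice in each pool and 1 array for each pool. The mice carried no other labelled treatment or allele. The sources used here give neither the age of the mice nor the surface markers that defined a stem cell in the sort. The RNA of each pool went through an amplification step before hybridisation, per the labels' protocols, so the spread between pools holds that of this step as well as that of the animals. The values are log2 signals after RMA, and every difference subtracts the CCR2-negative mean from the CCR2-positive mean, followed by the limma standard error. Levels are set against each other between pools and not between genes, since probe sets differ in brightness. In sorted pools of this kind, fewer cells of a type and less RNA per cell cannot be told apart.

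The respiratory chain lies in the inner mitochondrial membrane. Complex I takes electrons from NADH and complex II takes them from succinate, complex III passes them to cytochrome c, and complex IV hands them to oxygen. Complexes I, III and IV pump protons, and complex V, the ATP synthase, uses the gradient to make ATP. Most subunits are encoded in the nucleus, and a small set in mitochondrial DNA. Quiescent haematopoietic stem cells are known for a low reliance on oxidative phosphorylation, which rises when they divide and differentiate. The transcription factors NRF1, GABP (an ETS factor) and YY1 are known to bind promoters of many of the nuclear genes.

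Promoters are shown for the members with the smallest p-values among those with a promoter in the table at hand (Cox7a2l, Atp5c1 and Ndufb3), and for the members whose pools did not overlap and whose promoter held the NRF1 letters (Cox6a1 and Atp5k). Sequences are from RefSeq, build GRCm38.p6, as 300 bases around the start of the gene, on the strand of the gene. Capitals mark the searched motifs, so that a sequence without capitals held none of them.
Cox7a2l, chr17:83514284-83514583, minus strand: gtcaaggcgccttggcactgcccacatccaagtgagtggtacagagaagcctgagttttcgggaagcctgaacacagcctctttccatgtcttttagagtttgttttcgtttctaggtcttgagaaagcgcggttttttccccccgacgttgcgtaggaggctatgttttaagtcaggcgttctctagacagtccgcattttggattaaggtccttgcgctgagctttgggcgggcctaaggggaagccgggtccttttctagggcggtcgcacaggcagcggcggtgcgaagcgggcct
Atp5c1, chr2:10080461-10080760, minus strand, the first of 2 starts listed: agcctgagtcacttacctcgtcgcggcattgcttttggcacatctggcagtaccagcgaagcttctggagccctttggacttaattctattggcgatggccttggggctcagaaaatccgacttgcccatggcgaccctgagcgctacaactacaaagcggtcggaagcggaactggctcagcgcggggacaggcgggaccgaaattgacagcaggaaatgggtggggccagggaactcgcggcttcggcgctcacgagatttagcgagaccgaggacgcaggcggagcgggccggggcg
Ndufb3, chr1:58586147-58586446, plus strand: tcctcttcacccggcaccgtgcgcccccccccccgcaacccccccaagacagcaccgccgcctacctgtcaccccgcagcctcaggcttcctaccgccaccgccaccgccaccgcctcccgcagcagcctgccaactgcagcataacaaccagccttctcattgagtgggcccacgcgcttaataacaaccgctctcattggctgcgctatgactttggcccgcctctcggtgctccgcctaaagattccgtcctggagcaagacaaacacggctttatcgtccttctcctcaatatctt
Cox6a1, chr5:115348909-115349208, minus strand: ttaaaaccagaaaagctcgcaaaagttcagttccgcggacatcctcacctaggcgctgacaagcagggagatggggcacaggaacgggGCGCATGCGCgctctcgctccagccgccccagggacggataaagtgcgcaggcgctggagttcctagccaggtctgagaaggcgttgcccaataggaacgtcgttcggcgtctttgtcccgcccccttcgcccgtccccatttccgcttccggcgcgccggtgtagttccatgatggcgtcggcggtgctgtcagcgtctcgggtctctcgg
Atp5k, chr5:108434350-108434649, minus strand: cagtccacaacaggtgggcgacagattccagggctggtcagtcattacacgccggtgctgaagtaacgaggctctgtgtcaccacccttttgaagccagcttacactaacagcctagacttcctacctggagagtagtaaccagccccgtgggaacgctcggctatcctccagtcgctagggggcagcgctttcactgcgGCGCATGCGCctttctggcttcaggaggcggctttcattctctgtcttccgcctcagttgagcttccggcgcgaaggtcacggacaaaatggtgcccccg

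The letters searched for NRF1 were the run of capitals in the promoters of Cox6a1 and Atp5k, those for ETS factors were CCGGAAGT and those for YY1 ATGGCGG, each on both strands. A promoter was listed for 65 of the 82 members. The NRF1 letters were present for 5 of these 65 genes (7.69%), namely Atp5g2, Atp5k, Cox6a1, Ndufa11 and Uqcrc1, and for 1.07% of all 27025 genes with a listed promoter. In the promoter of Cox6a1 they began at position -162 relative to the start of the gene, and in that of Atp5k at position -50. CCGGAAGT was present for 5 members (7.69%, against 4.31% of all genes) and ATGGCGG for 9 (13.8%, against 4.69%). A match describes letters and not bound protein. The 19 members with any of these motifs had a median difference of -0.0046 on the log2 scale, and the 46 with a listed promoter and none of them 0.013.

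No member differed between the groups past the threshold. In the limma fit over all 22180 genes, 0 of 82 members had an adjusted p under 0.05, and the smallest adjusted p of a member was 0.277. The share of all genes called was 0.00%. At an adjusted p under 0.2 there were 0 members, where 1.43% of all genes passed, 0.334% higher and 1.10% lower. Before adjustment 4 members (4.88%) had a p under 0.05, 2 higher and 2 lower, where the share of all genes was 12.2%, with 5.63% higher and 6.61% lower. Of the members, 43 lay above 0 and 39 below (39 above and 43 below with median centring), with a median difference of 0.013. The median over all genes was 0.027, and 56.0% of them lay above 0. That order depended on dim genes. Without genes under the median of mean level, 37 members lay above 0 and 35 below, with a median of 0.013. The median over all genes kept was then -0.033. Differences ran from -0.34 (Atp5c1) to 0.37 (Atp5c1-ps). They were smaller than 0.2 in either direction for 71 members (86.6%), as for 70.2% of all genes, and larger than 0.5 for 0 members, as against 3.73% of all genes.

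A p above the threshold does not show equal levels. The intervals give a range for the difference of each member taken alone, without adjustment over the 82. They concern array signal and not RNA amount. The 95% interval of a member's difference reached between 0.213 and 0.446 to either side, with a median of 0.289. For 76 of the 82 members the whole interval lay within 1.5-fold in either direction (0.585 on the log2 scale), and for all 82 within 2-fold. The 6 members whose interval passed 1.5-fold were Ndufa4l2, Ndufs1, Ndufa7, Cox7a1, Atp5c1 and Atp5c1-ps. Of the members, 78 were above the 25th percentile of mean level over all genes and 72 above the median. Detection calls are not part of the table, so whether the dimmest members exceeded background is unknown.

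**Figure D1:**
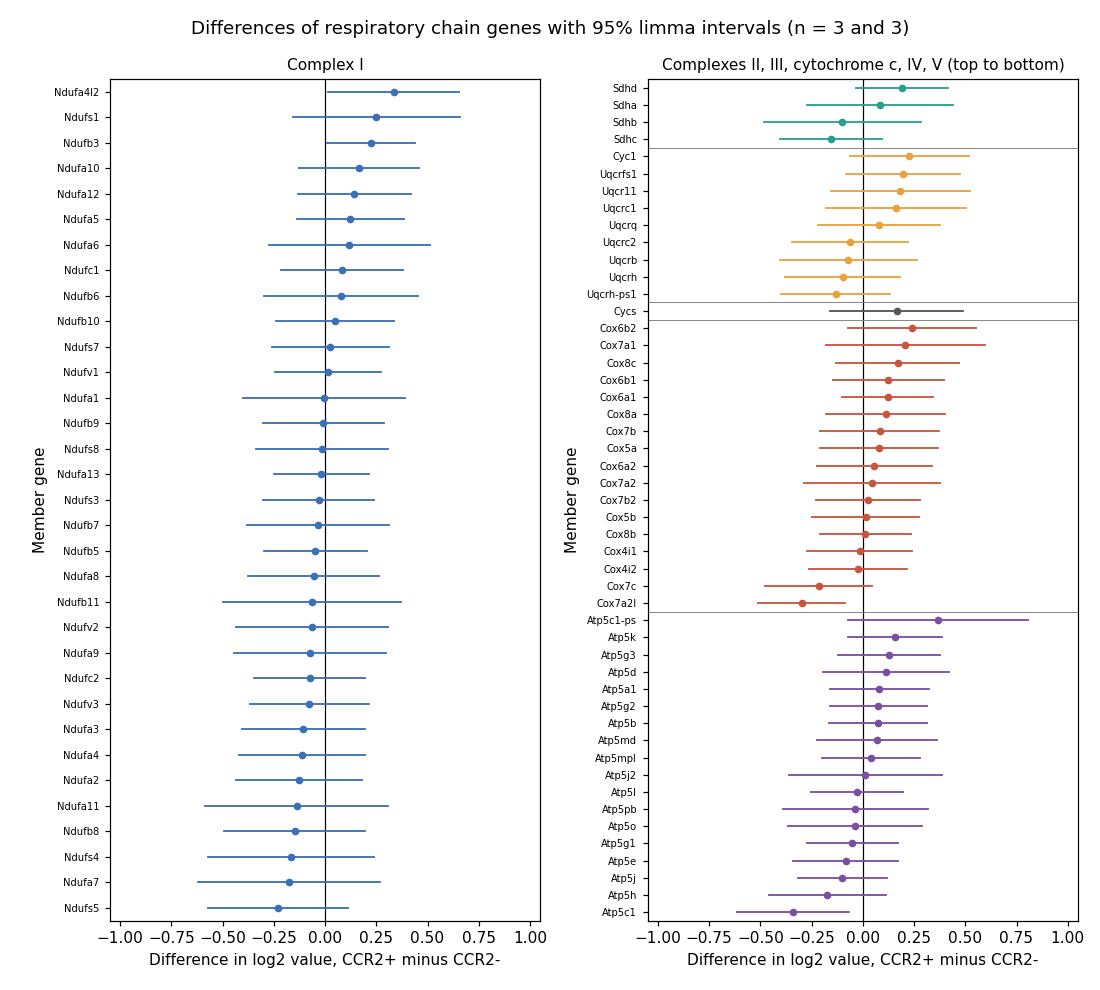
Difference in log2 value (CCR2-positive minus CCR2-negative, horizontal axis) of each of the 82 members (rows, coloured by complex), with the 95% limma interval as a line, n = 3 pools in each group. All intervals lie within 1 to either side of 0, and the intervals of 4 members, Ndufa4l2, Ndufb3, Cox7a2l and Atp5c1, leave out 0 before adjustment.

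Complex I had 12 members above 0 and 21 below, with a median of -0.032. This balance turned with the scaling, to 18 above and 15 below after a second quantile normalization (median 0.020) and 19 above and 14 below with cyclic loess (median 0.0082). It turned further with single pools, to 29 above and 4 below without CCR2-negative replicate 2 (median 0.0834) and to 22 above and 11 below without CCR2-positive replicate 3 (median 0.0223). The core subunits, which hold the flavin and the iron-sulphur clusters that carry electrons, had a median of -0.0006 over the 6 measured, from -0.065 to 0.25, with 3 above 0 and 3 below. After a second quantile normalization 5 of the 6 lay above 0 (median 0.0592), with cyclic loess 5 (median 0.055) and without CCR2-negative replicate 2 all 6 (median 0.092). Ndufv1, which binds NADH through its flavin, had log2 values of 8.75, 8.68 and 8.82 in the CCR2-positive pools and of 8.57, 8.87 and 8.76 in the CCR2-negative pools. Those ranges overlapped almost fully, and the difference of 0.01 ± 0.11 had an interval of -0.24 to 0.27. Ndufs1, the iron-sulphur subunit that takes electrons on from Ndufv1, had 7.75, 8.34 and 7.69 in CCR2-positive pools against 7.51, 7.78 and 7.74 in CCR2-negative pools. Its difference of 0.25 ± 0.18 rested on CCR2-positive replicate 2, which stood above the other 5 pools.

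The accessory subunits of complex I surround that core. The 12 NDUFA members had a median of -0.037, from -0.18 (Ndufa7) to 0.17 (Ndufa10), a median that became 0.0497 when CCR2-positive replicate 3 was left out and 0.0667 when CCR2-negative replicate 2 was. The 10 members named NDUFB or NDUFC, which sit mostly in the membrane arm, had a median of -0.022, from -0.15 (Ndufb8) to 0.22 (Ndufb3), which turned to 0.0225 after a second quantile normalization, 0.0109 with cyclic loess and 0.0982 without CCR2-negative replicate 2. Ndufb3 had 8.40, 8.43 and 8.44 in CCR2-positive pools and 8.21, 8.24 and 8.15 in CCR2-negative pools. All CCR2-positive pools were above all CCR2-negative ones, by a difference of 0.22 ± 0.09 (unadjusted p = 0.0438, limma adjusted p = 0.391). Among the other accessory members, Ndufs5, which faces the intermembrane space, had 5.78, 5.49 and 5.69 in CCR2-positive against 5.71, 6.18 and 5.77 in CCR2-negative pools. The difference of -0.23 ± 0.15 came with overlapping pools, and CCR2-negative replicate 2 was the highest of the 6.

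Ndufa4 and Ndufa4l2 carry complex I symbols, but Ndufa4 is known as a subunit of complex IV, and Ndufa4l2 is an alternative form known to be induced by hypoxia through HIF-1. Ndufa4l2 had 5.40, 5.28 and 5.78 in the CCR2-positive pools, all above the 5.18, 5.19 and 5.08 of the CCR2-negative pools. The difference was 0.33 ± 0.14, a 1.26-fold higher level, with an unadjusted p of 0.0419 and a limma adjusted p of 0.385. The highest value was that of CCR2-positive replicate 3, and without this pool the difference was 0.19. For Ndufa4 the values were 11.41, 11.44 and 11.35 in CCR2-positive pools and 11.43, 11.79 and 11.32 in CCR2-negative pools. Here the groups overlapped, with a difference of -0.11 ± 0.14.

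Complex II, which is also the succinate dehydrogenase of the citric acid cycle and is wholly encoded in the nucleus, had 2 members above 0 and 2 below, with a median of -0.0074 that turned to 0.0473 after a second quantile normalization, 0.0442 with cyclic loess and 0.122 without CCR2-negative replicate 2. Sdhd, a membrane anchor, had 9.33, 9.26 and 9.16 in CCR2-positive and 9.02, 9.08 and 9.07 in CCR2-negative pools. These groups did not overlap, but the difference of 0.19 ± 0.10 did not pass (limma adjusted p = 0.467). Sdhc, the other anchor, lay the other way, with 8.91, 8.90 and 8.72 in CCR2-positive against 9.03, 9.09 and 8.89 in CCR2-negative pools and a difference of -0.16 ± 0.11. Of the catalytic pair, Sdha, the flavoprotein, differed by 0.09 ± 0.16 and Sdhb, the iron-sulphur protein, by -0.10 ± 0.17. Both had overlapping pools, so the 4 genes showed no common direction.

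Complex III had 5 members above 0 and 4 below, with a median of 0.079. Single pools moved this median to 0.1935 without CCR2-negative replicate 2, 0.0102 without CCR2-positive replicate 2 and -0.0024 without CCR2-negative replicate 1. Without the pseudogene Uqcrh-ps1, an alternative chosen after the data were seen, the median was 0.12. Cyc1 encodes cytochrome c1, the haem protein of complex III that passes electrons to cytochrome c. Its values were 9.20, 9.41 and 9.13 in CCR2-positive and 8.94, 9.21 and 8.90 in CCR2-negative pools, so that CCR2-negative replicate 2 lay within the CCR2-positive range (difference 0.23 ± 0.13, limma adjusted p = 0.505). Uqcrfs1, the Rieske iron-sulphur protein, had 7.77, 7.93 and 7.60 against 7.44, 7.64 and 7.64 in CCR2-negative pools, a difference of 0.20 ± 0.12. Uqcr11, a small subunit, had 9.46, 9.19 and 9.35 in CCR2-positive and 8.93, 9.44 and 9.07 in CCR2-negative pools, a difference of 0.18 ± 0.15. In each of these the lowest pool was a CCR2-negative one, while the groups overlapped.

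Cycs encodes cytochrome c itself, the mobile carrier between complexes III and IV, which also takes part in apoptosis. The probe set used had 10.60, 10.77 and 10.56 in CCR2-positive pools and 10.25, 10.74 and 10.43 in CCR2-negative pools, a difference of 0.16 ± 0.14 with overlap. Cycs had 5 probe sets with this gene as their annotation, more than any other member, and they did not give the same value. Their differences were 0.53, 0.16, 0.05, 0.04 and 0.04, and the last pair held identical values on every array. The probe set at 0.53 ± 0.21 had, when limma was fitted to all 41345 probe sets, an unadjusted p of 0.0424 and an adjusted one of 0.452. Processed pseudogenes are known for Cycs and for many other subunit genes, and cross-hybridisation between copies was not tested.

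Complex IV had 13 members above 0 and 4 below, with a median of 0.057, and 11 above and 6 below after a second quantile normalization, median centring or cyclic loess. Its median ran from 0.0029 without CCR2-negative replicate 1 to 0.1232 without CCR2-negative replicate 2. The smallest p of any member belonged to Cox7a2l, known for joining complexes III and IV into supercomplexes, and C57BL/6 strains are known to carry a shortened form of the protein. It had 8.59, 8.65 and 8.64 in the CCR2-positive pools and 8.91, 8.95 and 8.92 in the CCR2-negative pools. The pools were tightly grouped and apart, with a difference of -0.30 ± 0.09, a 1.23-fold lower level (unadjusted p = 0.0116, limma adjusted p = 0.277). Under the alternatives tried the difference ran from -0.32 to -0.24 and its adjusted p from 0.18 to 0.557.

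Among the other subunits of complex IV found in most tissues, 7 of 9 lay above 0, with a median of 0.079, and 6 of 9 under each of the other scalings. Without CCR2-negative replicate 1 it was 5 of 9 (median 0.0019), and without CCR2-negative replicate 3 also 5 of 9 (median 0.0212). Cox4i1, the regulatory subunit, had 11.18, 11.21 and 11.08 in CCR2-positive and 11.04, 11.34 and 11.15 in CCR2-negative pools, with a difference of -0.01 ± 0.11 and full overlap. Cox6a1 had 11.68, 11.80 and 11.69 in CCR2-positive pools and 11.60, 11.64 and 11.57 in CCR2-negative pools. Its groups did not overlap, yet the difference of 0.12 ± 0.10 was 1.09-fold (limma adjusted p = 0.646). Cox7c, a small subunit, had 7.19, 7.04 and 7.24 against 7.24, 7.52 and 7.35 in CCR2-negative pools, a difference of -0.22 ± 0.11 in which the groups met at 7.24.

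The paired isoforms of complex IV gave no sign of a switch past the threshold. Cox4i2, the form known from lung and hypoxia, differed by -0.02 ± 0.10 (5.67 ± 0.04 in CCR2-positive and 5.70 ± 0.12 in CCR2-negative pools, SD, n = 3 each). Of the muscle forms, Cox6a2 differed by 0.06 ± 0.12, Cox7a1 by 0.21 ± 0.17 and Cox8b by 0.01 ± 0.10, the last turning to -0.0626 after a second quantile normalization, -0.0116 with median centring and -0.075 with cyclic loess. Their widely expressed partners Cox6a1, Cox7a2 and Cox8a differed by 0.12 ± 0.10, 0.04 ± 0.14 and 0.11 ± 0.13. The value of Cox7a1 rested on CCR2-positive replicate 3, which had 5.53 where the other 5 pools had 4.87 to 4.97. Of the testis forms, Cox6b2 had 10.17, 10.49 and 10.35 in CCR2-positive against 9.88, 10.26 and 10.15 in CCR2-negative pools (difference 0.24 ± 0.14), beside 0.12 ± 0.12 for its partner Cox6b1. Cox8c differed by 0.17 ± 0.13 and Cox7b2 by 0.03 ± 0.11. With Ndufa4l2, the 8 tissue-restricted or alternative forms had a median of 0.11, and 1 of them lay below 0, against 2 under each of the other scalings. Without CCR2-positive replicate 3 their median was 0.0225, with 5 above 0 and 3 below. Most of these forms were dim. Of the 8, 2 were above the median of mean level over all genes and 6 above the 25th percentile. The brightest was Cox6b2, with a mean of 10.22 at percentile 98.67. Whether its probe set also measures other transcripts was not tested.

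Complex V had 10 members above 0 and 8 below, with a median of 0.026 that was 0.0626 without CCR2-negative replicate 2 and -0.0054 without CCR2-negative replicate 1. In its catalytic F1 part, Atp5b and Atp5a1, the beta and alpha subunits, held tight values. Atp5b had 11.19, 11.23 and 11.00 in CCR2-positive and 11.02, 11.10 and 11.08 in CCR2-negative pools, and its difference of 0.07 ± 0.10 had an interval of -0.17 to 0.31. Atp5a1 differed by 0.08 ± 0.11. Atp5c1, the gamma subunit that turns inside the ring of alpha and beta, had 6.92, 6.91 and 6.85 in CCR2-positive pools, all below the 7.01, 7.36 and 7.32 of the CCR2-negative pools. This was the lowest difference of any member, -0.34 ± 0.12 or 1.27-fold lower (unadjusted p = 0.0205, limma adjusted p = 0.320), and it did not pass. The entry named as its pseudogene, Atp5c1-ps, lay the other way with 4.14, 3.75 and 4.29 in CCR2-positive and 3.45, 4.06 and 3.57 in CCR2-negative pools, overlapping, at low values and with wide spread (difference 0.37 ± 0.19).

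The ring of c subunits, through which protons pass, is made by 3 genes for the same mature protein. Atp5g1 differed by -0.05 ± 0.10, Atp5g2 by 0.08 ± 0.10 and Atp5g3 by 0.13 ± 0.11, all with overlapping pools. The peripheral stalk, which holds the F1 part still, had all 4 members below 0, from -0.17 (Atp5h) to -0.036 (Atp5pb), and 3 of 4 with cyclic loess. Their median of -0.0686 turned to 0.0281 without CCR2-negative replicate 2, where 2 lay above 0 and 2 below. Atp5h had 10.44, 10.46 and 10.33 in CCR2-positive pools and 10.47, 10.82 and 10.47 in CCR2-negative pools. The groups nearly met, at 10.46 and 10.47, the difference was -0.17 ± 0.12, and the second probe set of Atp5h gave 0.11. Of the 5 small membrane subunits 4 lay above 0, with a median of 0.039, and 3 under each of the other scalings. The median was 0.1113 without CCR2-negative replicate 2 and -0.0012 without CCR2-negative replicate 1. The largest was that of Atp5k, the e subunit that helps ATP synthases pair, with 11.53, 11.47 and 11.38 in CCR2-positive against 11.23, 11.36 and 11.32 in CCR2-negative pools. Its groups did not overlap, and the difference was 0.16 ± 0.10 (limma adjusted p = 0.557).

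Over the whole list 8 members had CCR2-positive and CCR2-negative pools with no overlap, 5 of them higher and 3 lower. That is 9.76% of the members, where the share of all genes was 18.6%, with 10.8% higher and 7.88% lower. The 5 higher were Ndufa4l2, Ndufb3, Sdhd, Cox6a1 and Atp5k, spread over complexes I, II, IV and V, and the 3 lower were Cox7a2l, Atp5c1 and Atp5h.

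**Figure D2:**
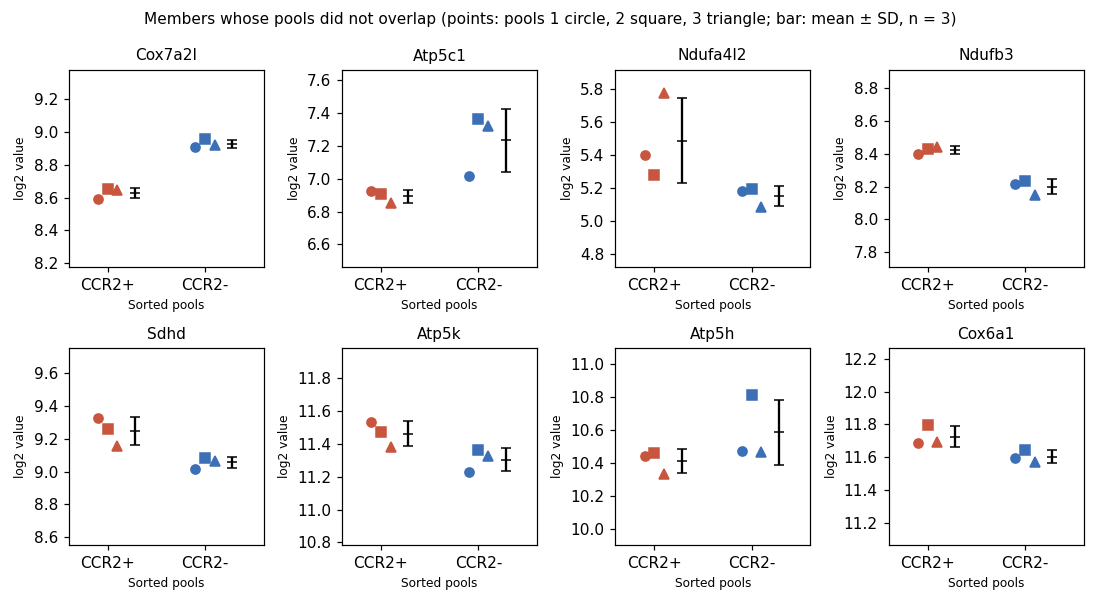
Log2 value (vertical axis, 1.2 units in each panel) of the 8 members whose CCR2-positive pools (left, red) and CCR2-negative pools (right, blue) did not overlap, with 1 point for each pool and the mean ± SD (n = 3) beside it. The Cox7a2l pools lie between 8.59 and 8.65 in the CCR2-positive and between 8.91 and 8.95 in the CCR2-negative group, while those of Atp5h nearly meet, at 10.46 and 10.47.

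The spread within the CCR2-negative group followed 1 pool. CCR2-negative replicate 2 had the highest value of its group for 71 of 82 members (86.6%), as for 33.5% of all genes. For complex I this held for 32 of 33 members, for complex II 4 of 4, for complex III 8 of 9, for complex IV 14 of 17 and for complex V 12 of 18. The exception in complex I was Ndufb11, and those in complex V were Atp5a1, Atp5d, Atp5g1, Atp5g2, Atp5j and Atp5j2. This pool lay above the mean of the other CCR2-negative pools by a median of 0.24 over the members and by -0.016 over all genes. Its array median of 5.48 was the lowest of the 6, which ran up to 5.58. The 95th percentile of its array, 9.16, was the highest of its group, beside 9.12 and 9.10. In the CCR2-positive group, replicate 2 was the highest for 41 of 82 members, as for 33.1% of all genes. The 95th percentile of that array, 9.20, was also the highest of its group, beside 9.12 and 9.02.

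The mean level over the 82 members was 8.95, 8.99 and 8.88 in the CCR2-positive pools and 8.83, 9.08 and 8.86 in the CCR2-negative pools. CCR2-negative replicate 2 was thus the highest pool of the series and the other CCR2-negative pools the lowest. The difference of the group means was 0.02 ± 0.09 (standard error over the pools). Without CCR2-negative replicate 2, 68 of 82 members lay above 0 and 14 below, with a median of 0.091, and 0 passed the threshold. In that fit 6 members (7.32%), 5 higher and 1 lower, had a p under 0.05 before adjustment, where the share of all genes was 9.46%. Without CCR2-negative replicate 1 there were 2 such members (2.44%), where the share of all genes was 8.66%. With any other pool left out the median ran from -0.022 to 0.041. Why this pool stood apart was not tested.

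**Figure D3:**
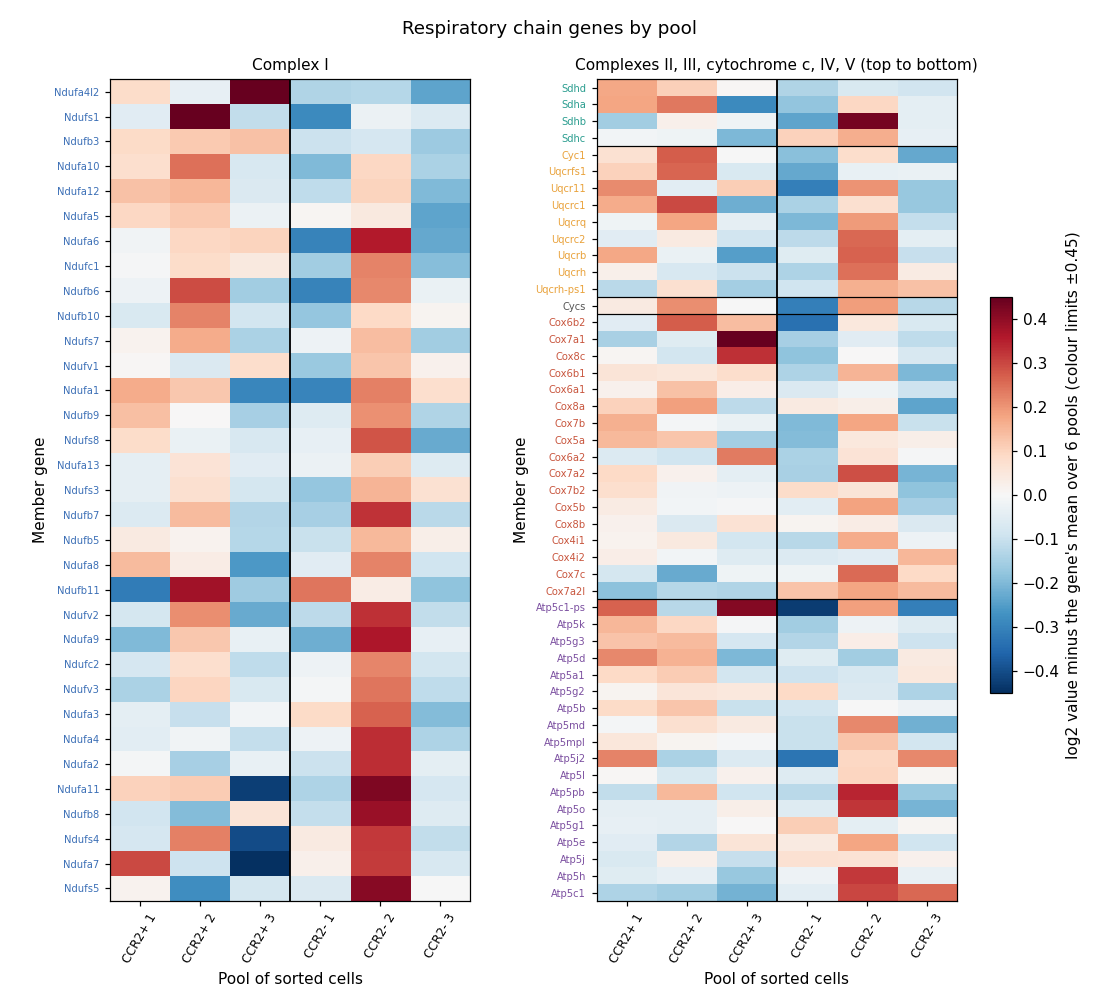
Log2 value of each of the 82 members (rows) in each pool (columns, CCR2-positive left of the line, CCR2-negative right of it) minus the gene's mean over the 6 pools, with colours that end at 0.45 to either side. The column of CCR2-negative replicate 2 is red for most members, and it is the highest CCR2-negative pool for 32 of 33 members of complex I and 4 of 4 of complex II.

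The share of genes with this pool as the highest of its group ranged widely among other nuclear genes of the mitochondrion. It was 61 of 71 genes of the mitochondrial ribosome (85.9%), 16 of 19 genes of protein import (84.2%), 11 of 15 genes of the citric acid cycle list (73.3%) and 24 of 39 assembly factors (61.5%). The citric acid cycle list also held Pdha1, Pdhb and Dlat, which are genes of pyruvate dehydrogenase. Of the 18 genes of mitochondrial transcription and biogenesis, CCR2-negative replicate 2 was the highest of its group for 6 (33.3%), beside 33.5% of all genes. For the 67 measured genes of the cytosolic ribosome the share was 61.2%, and for glycolysis it was 1 of 12. In the CCR2-positive group, replicate 2 was the highest for 15 of 15 genes of the citric acid cycle list and 15 of 19 of import. It was so for 28 of 39 assembly factors, 41 of 71 genes of the mitochondrial ribosome and 10 of 18 of transcription and biogenesis. For the cytosolic ribosome that share was 28.4%, for glycolysis 6 of 12 and for all genes 33.1%. Whether any of these shares differs from that of the members was not tested.

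Subunits encoded in mitochondrial DNA were measured beside the nuclear ones. Of 13 such protein-coding genes 10 had a probe set of their own, and all 10 lay above 0, from 0.14 (COX3, a core subunit of complex IV) to 0.32 (ND4L, a membrane subunit of complex I), with a median of 0.18. Their mean level was 12.34, 12.36 and 12.40 in the CCR2-positive pools and 12.16, 12.13 and 12.18 in the CCR2-negative pools, so that the groups stood apart and CCR2-negative replicate 2 was the lowest. All 10 were among the brightest genes, from percentile 99.761 of mean level over all genes (ND4L) to 99.991 (ND3). What signals this bright limit in size or spread was not tested. ND2, another membrane subunit of complex I, had 11.98, 11.98 and 12.00 in CCR2-positive pools and 11.63, 11.66 and 11.71 in CCR2-negative pools (difference 0.32 ± 0.09, limma adjusted p = 0.259). The pools did not overlap for any of the 10, where the share of all genes higher in this way was 10.8%, but 0 of 10 passed over all genes. Before adjustment 3 of the 10 (30.0%), all higher, had a limma p under 0.05, where the share of all genes was 12.2%, with 5.63% higher. With eBayes set to trend and robust, all 10 had an unadjusted p under 0.05, as did 12.3% of all genes in that fit, and 0 passed. They are cut from shared precursor transcripts and so are not 10 separate observations. The median ran from 0.13 to 0.21 under the alternatives, all 10 above 0 in each, and the difference between the mitochondrial and the nuclear genes was not tested.

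**Figure D4:**
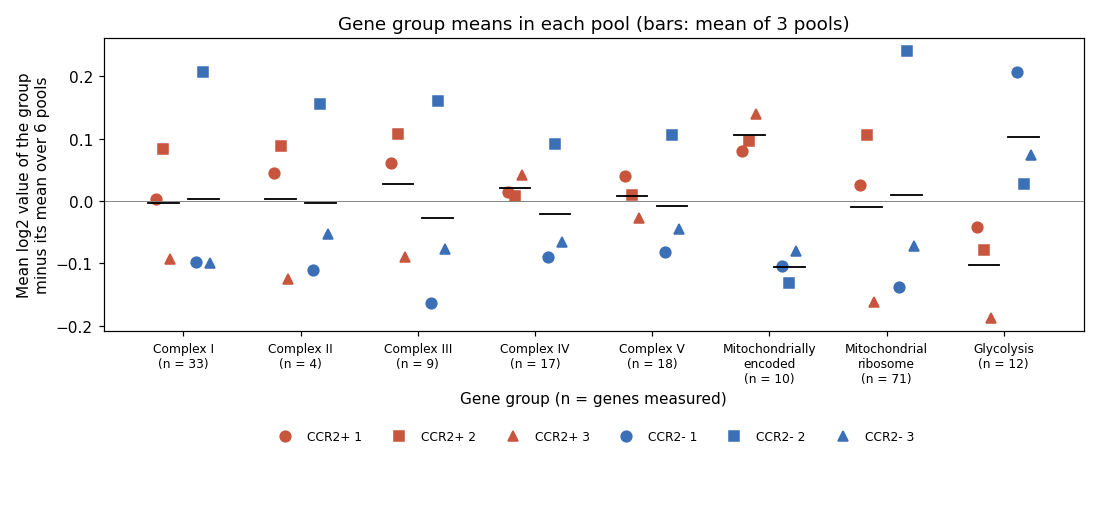
Mean log2 value of each gene group (horizontal axis, with the number of genes measured) in each pool, minus the mean of the group over the 6 pools, with CCR2-positive pools in red on the left of each pair and CCR2-negative pools in blue on the right. Bars are means of 3 pools. The groups of pools overlap for complexes I to V and the mitochondrial ribosome, with CCR2-negative replicate 2 (square) on top, and stand apart for the mitochondrially encoded subunits (higher) and for glycolysis (lower).

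Other lists of the pathway were described in the same way, and 0 of their genes passed over all genes. Of 39 assembly factors, which build the complexes without staying in them, 16 lay above 0 and 23 below, with a median of -0.10. The lowest p among them belonged to Nubpl, which supplies iron-sulphur clusters to complex I, with 6.48 in CCR2-positive and 7.04 in CCR2-negative pools on average (difference -0.56 ± 0.15, limma adjusted p = 0.238). Tmem126b, another complex I assembly factor, differed by -0.42 ± 0.16. The pools did not overlap for either of these genes, which were named for their small p. Over the list this held for 4 of 39 genes (10.3%), all lower, where the share of all genes was 18.6%, with 7.88% lower. Of the 15 genes of the citric acid cycle list, which held pyruvate dehydrogenase genes too, 10 lay above 0, with a median of 0.055. Pdha1, a subunit of pyruvate dehydrogenase, differed by 0.45 ± 0.16 (limma adjusted p = 0.331). Import genes had 12 of 19 above 0 (median 0.032), with Timm8a1, a chaperone of the intermembrane space, at 0.39 ± 0.13. Timm17b lay the other way, at -0.36 ± 0.14. Of the import genes 10.5% had an unadjusted limma p under 0.05, beside 12.2% of all genes. The pools did not overlap for 15.8% of them, beside 18.6% of all genes. Genes of mitochondrial transcription and biogenesis had 8 of 18 above 0 (median -0.011), and those of the mitochondrial ribosome 35 of 71 (median -0.0003). All 12 measured glycolysis genes lay below 0, with a median of -0.15. The glycolysis mean was 7.96, 7.92 and 7.81 in CCR2-positive pools and 8.20, 8.02 and 8.07 in CCR2-negative pools, groups that stood apart. Pkm had the largest difference of that list, -0.87 ± 0.19 (limma adjusted p = 0.183). Gene by gene, the pools did not overlap for 2 of 12 (16.7%), Pkm and Slc2a1. The share of all genes was 18.6% in either direction and 7.88% lower.

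Ccr2 itself differed by 0.79 ± 0.24 with overlapping pools (limma adjusted p = 0.274). Markers of other marrow cells were set beside these values. All 16 measured erythroid markers lay above 0, and their mean level was 8.24 to 8.65 in CCR2-positive and 7.64 to 8.05 in CCR2-negative pools. Of the monocyte and macrophage markers 13 of 15 lay above 0 (6.22 to 6.63 against 6.06 to 6.19 in CCR2-negative pools), and of the neutrophil markers 16 of 16 (5.17 to 5.60 against 4.89 to 5.17 in CCR2-negative pools). Of the lymphoid markers 7 of 9 lay above 0 (5.31 to 5.49 against 5.36 to 5.37 in CCR2-negative pools). All 10 measured stem cell markers, among them Kit, Procr and Slamf1, lay below 0 (7.26 to 7.57 against 7.87 to 8.15 in CCR2-negative pools). Tek (-0.82 ± 0.16) and Cd34 (-0.83 ± 0.17) had the smallest p of that list. Median differences were -0.55 for the stem cell and 0.47 for the erythroid markers. Pools did not overlap for 8 of 10 stem cell markers (80.0%, all lower) and 13 of 16 erythroid markers (81.2%, all higher). The share was 33.3% for monocyte and macrophage, 18.8% for neutrophil and 11.1% for lymphoid markers, beside 18.6% of all genes. No marker is at 0, because RMA values have no zero. The part of these cell types in the values of the respiratory chain genes was not tested.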

How the data were processed

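The authors deposited 1 table of log2 values, 41345 probe sets by 6 arrays, made with RMA per the submitters' processing notes. RMA corrects background, equalises the arrays and summarises probes, so that values are relative to the other genes of an array. The sources used here give no version or settings for it. Values ran from 2.39 to 13.3, and the number of arrays limits the precision. Of the probe sets, 23521 had 1 gene, 1814 several (left unnamed) and 16010 none listed. The probe set with the highest mean was used for each of 22180 genes. Mitochondrially encoded genes were matched by chromosome in the RefSeq table of GRCm38.p6.

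The groups were compared with limma 3.58.1 in R 4.3.3 (lmFit, eBayes, no covariate), with Benjamini-Hochberg adjustment over all genes and a threshold of 0.05. The design calls the pools biological replicates. Pairing by replicate number is not stated, so the numbers were not taken as pairs, and the replicate block was run as an alternative. Same-numbered pools had deviations from their group means that correlated at 0.0348, 0.0892 and 0.0447 across genes. Those of different-numbered pools correlated at -0.102 to 0.0678. With 3 pools in each group, these values do not decide whether the pools were paired.

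The members and gene lists were chosen with earlier results of these data known. Per-pool values were given by rule for the 3 members of each complex (2 for complex II) with the smallest p, and for defining subunits and isoform pairs, some of these as differences only. In other lists up to 2 genes with the smallest p were named. COX3, Kit, Procr, Slamf1 and the exceptions and range ends given by name were chosen after their values were seen. Alternatives were filters on dim genes, 3 other scalings, the replicate block, trend and robust settings, array weights, other choices of probe set, other thresholds, and each pool left out.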

Additional observations from a re-analysis of the deposited data

How the results depend on the processing

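With the threshold at an adjusted p of 0.05, 0 of 82 members passed under every alternative tried, the fit on all probe sets included (95 probe sets of members). At an adjusted p under 0.2, 318 genes and 0 members passed, and with array weights 1022 genes and 1 member, Cox7a2l. Over all genes, leaving out 1 pool at a time gave counts past 0.05 from 0 to 2, with the 2 without CCR2-positive replicate 1. The member median ran from -0.022 to 0.091 in the same fits, the complex I median from -0.0887 to 0.0834, that of complex II from -0.0748 to 0.122, of complex III from -0.0024 to 0.1935, of complex IV from 0.0029 to 0.1232 and of complex V from -0.007 to 0.0626, each highest without CCR2-negative replicate 2. The members with an unadjusted p under 0.05 numbered 1 without CCR2-negative replicate 3 (1.22%, beside 10.7% of all genes in that fit), 2 (2.44%) without CCR2-positive replicate 1 (11.0%) or CCR2-negative replicate 1 (8.66%), and 6 (7.32%) without CCR2-negative replicate 2 (9.46%), with array weights (14.5%) or with cyclic loess (11.5%), against 4 of 82 as reported (4.88%, beside 12.2%). With the replicate block 0 members and 0 genes passed, with a median of 0.0129 and 2 members (2.44%) at an unadjusted p under 0.05, beside 13.2% of all genes. The member median was -0.0106 with median centring, 0.0315 after a second quantile normalization and 0.0676 with array weights. Of the 82 members, 44 had a difference that changed sign under at least 1 of 16 alternatives, 20 of them with all pools kept, and 25 changed sign without CCR2-negative replicate 2. The 4 members with an unadjusted p under 0.05 kept their sign throughout. The table gives no background for a probe set, so what dim signals limit is unknown. The cause of these shifts was not tested.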
